A study of Homo sapiens with 2 samples.

Results

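Histone genes were examined in 2 gastric cancer (GC) cell lines, MKN74 and MKN45, after knockdown of SET7/9. The members were all gene probes whose name on the array began with HIST1H to HIST4H, H1F, H2AF or H3F, present in the output of both arrays. This rule found 102 of 34127 gene probes, for 84 of 25940 gene names. Of these, 81 probes for 69 genes had a HIST1 to HIST4 name and are called clustered here, and 21 probes for 15 genes had an H1F, H2AF or H3F name and are called variant. The rule also took in the pseudogenes HIST1H2APS1 and HIST2H2BA and the antisense RNA H1FX-AS1. Each line received either SET7/9 siRNA or negative control siRNA at a final 50 nM by electroporation, and total RNA was collected 48 hrs later. One two-colour array per line carried the knockdown RNA in Cy5 and the control RNA in Cy3. The dyes were never swapped, so a dye effect and the knockdown cannot be told apart, and with 1 array per line no test within a line was possible.

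Histones package DNA. The core histones H2A, H2B, H3 and H4 form the nucleosome, and H1 sits on the linker DNA between nucleosomes. Most core and H1 proteins come from gene clusters that are transcribed in S phase, and the largest of them lies on chromosome 6. Their mRNAs lack a poly(A) tail in dividing cells and end in a conserved stem-loop that is bound by SLBP. Some clustered genes can also give longer, polyadenylated mRNAs from a downstream site. Variant histones such as H2A.Z, H2A.X, macroH2A and H3.3 come from genes outside the clusters with ordinary polyadenylated mRNAs, and they are incorporated outside replication as well. SET7/9 places a single methyl group on lysine 4 of histone H3 and also methylates proteins that are not histones. The labelling kit used here amplifies RNA from a poly(A)-directed primer, so the signal of a clustered histone gene depends on how that primer reaches its mRNA.

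SETD7, the gene of SET7/9, was checked first. At one probe its signal was 369 in the MKN74 control and 90.1 after knockdown, a log2 ratio of -2.03 ± 0.28. In MKN45 the same probe read 197 and 51.2, a log2 ratio of -1.95 ± 0.28. A dimmer SETD7 probe did not show this, with log2 ratios of 0.24 ± 0.22 and -0.23 ± 0.21. Here and below, signals are processed intensities in arbitrary units. An error after ± is the scanner software's own error of a log2 ratio, and it covers 1 array and no variation between cultures. All 6 epithelial markers (EPCAM, KRT8, KRT18, KRT19, CDH1 and CLDN4) were detected in the control channel of both lines. Of 4 fibroblast, 4 leukocyte and 3 endothelial markers, 1 of each was detected in MKN74 and 2 of each in MKN45.

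The ends of the replication-dependent mRNAs can be read in the probes themselves. The histone stem-loop consensus was found in 6 of 81 clustered probes (7.41%) and in 0 of 21 variant probes. Of the 34025 gene probes outside the name rule, 1 held it (0.00294%). That probe is named by a transcript and not by a gene symbol, and whether it lies in a histone gene was not checked. The last 30 bases of the 6 clustered probes are given 5′ to 3′ in the sense of the mRNA, with the stem-loop in capitals. They show which probes lie at the very end of the short mRNA.
HIST1H2AI, chr6:27776386-27776445, plus strand: ggaaccaaaGGCTCTTTTCAGAGCCaccta
HIST1H2BE, chr6:26184399-26184458, plus strand: aaacccaaaGGCTCTTTTCAGAGCCactca
HIST1H2BF, chr6:26200153-26200212, plus strand: acccaatcccaaaGGCTCTTTTAAGAGCCa
HIST1H3H, chr6:27778255-27778314, plus strand: atacccaaaGGCTCTTTTCAGAGCCaccca
HIST2H3A, chr1:149824626-149824685, plus strand: cgtatccaaaaGGCTCTTTTCAGAGCCacc
HIST1H4K, chr6:27798954-27799013, minus strand: ctatcaacaaaaGGCCCTTTTTAGGGCCcc
Coordinates are those of the whole 60-base probe on GRCh37, as in the array files. Both channels were well above background for 5 of these 6 probes in MKN74 and for all 6 in MKN45. The exception was the HIST1H2BE probe in MKN74. The log2 ratios of the probes detected in both channels lay between 0.02 and 0.33 in MKN74. In MKN45 they lay between -0.31 and 0.16.

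HIST1H2AC, an H2A gene, and HIST1H2BK, an H2B gene, had probes far apart on the chromosome, and their knockdown values are given probe by probe below. The first 30 bases of each probe are shown, in lower case because no part is singled out. One HIST1H2AC probe opened with the start codon of the gene and another lay just before it. The third, assigned to the gene by the array annotation, was 14.4 kb further downstream. The downstream probe of HIST1H2BK lay 8.25 kb beyond the other one.
HIST1H2AC before the start codon, chr6:26124403-26124462, plus strand: tttgtttgttttctcgtgagcttaggccgc
HIST1H2AC at the start codon, chr6:26124461-26124520, plus strand: atgtctggacgtggtaagcaaggaggcaaa
HIST1H2AC downstream, chr6:26138822-26138881, plus strand: gcattatgcaaatgcattatattttatgta
HIST1H2BK gene body, chr6:27114437-27114496, minus strand: aagaagcgcaagcgcagccgcaaggagagc
HIST1H2BK downstream, chr6:27106191-27106250, minus strand: ggtccattccttctctctaataatcattta
The HIST4H4 probe, the only member of the HIST4 group, crossed the start of the coding sequence. Its last 30 bases are shown with the first ATG in capitals.
HIST4H4, chr12:14924006-14924065, minus strand: ggcgctgtgatttcagaATGtctgggcgag
Members of one histone family are alike in sequence. Between probes of different genes, 8 pairs shared an identical run of at least 25 bases, and these pairs involved 13 probes of 11 genes, all of them clustered. The longest run, 37 bases, joined the HIST1H4J probe to the stem-loop probe of HIST1H4K. The next longest, 32 bases, joined the HIST1H2BD probe to the gene-body probe of HIST1H2BK. Values of such probes may hold signal from more than 1 gene. Probes were compared only with each other and not with whole histone mRNAs, so other probes may do so too.

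Promoters of the clustered genes shared motifs that were less common over all genes. RefSeq windows of 250 bases before to 50 bases after the start (GRCh38.p14) were matched for 75 of 83 histone genes, the antisense RNA left out. HIST1H2AH, HIST1H2APS1, HIST2H2BA, HIST1H3I, HIST1H3J, HIST1H4A, HIST1H4C and H1F0 were not matched. The CCAAT box (letters CCAAT), the TATA box (letters TATAAA) and the octamer (letters ATTTGCAT) were searched on both strands, and none of these words contains another. CCAAT was in 52 of 62 clustered genes (83.9%), in 11 of 13 variant genes (84.6%) and in 39.7% of all 27305 genes with a window. TATAAA was in 41 clustered genes (66.1%) and 4 variant genes (30.8%), against 14% of all genes. The octamer was in 25 clustered genes (40.3%) and 1 variant gene (7.69%), against 2.19% of all genes. Within the clusters the octamer was nearly all in H2A and H2B genes, with 10 of 14 and 14 of 18 genes, beside 1 of 11 H3 genes and no H1 or H4 gene. H4 genes differed in CCAAT too, which was in 3 of 13 of them and in every H1, H2A, H2B and H3 gene with a window. A match describes these letters in the window and is not a bound site.

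**Figure D1:**
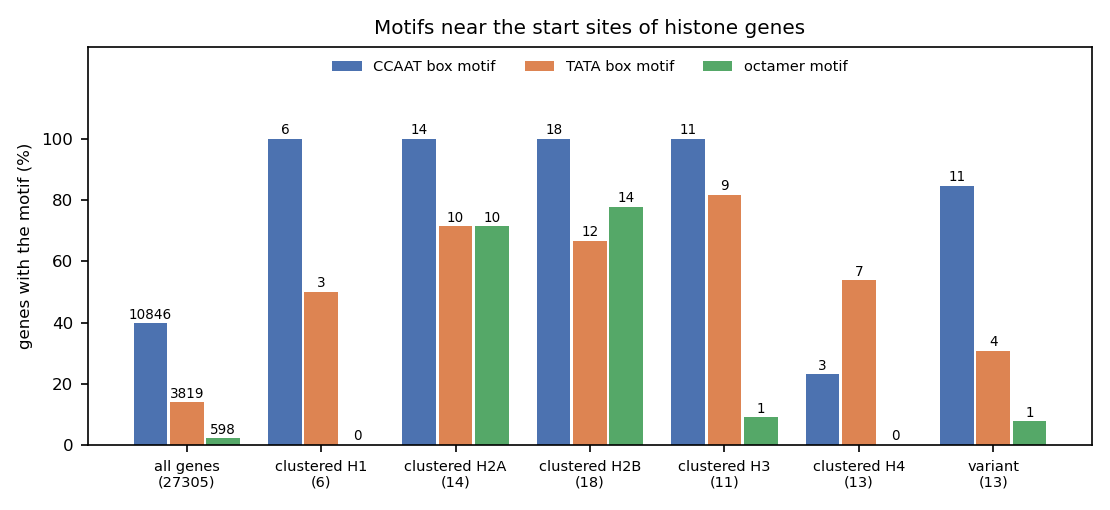
Share of genes (percent, y axis) whose window from 250 bases before to 50 bases after the start held the CCAAT box, TATA box or octamer motif on either strand, for all genes, 5 families of clustered histone genes and variant histone genes (number of genes in brackets; number with the motif above each bar). The octamer bars stand at 10 of 14 H2A genes and 14 of 18 H2B genes and at 598 of all 27305 genes.

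The 150 bases before the start are printed for HIST1H2AC and HIST1H2BK, because their downstream probes were both lower after knockdown in MKN74, and for HIST4H4 and H2AFJ, because these neighbours on chromosome 12 were both brighter in MKN45. Motifs are in capitals.
HIST1H2AC, chr6:26124022-26124171, plus strand: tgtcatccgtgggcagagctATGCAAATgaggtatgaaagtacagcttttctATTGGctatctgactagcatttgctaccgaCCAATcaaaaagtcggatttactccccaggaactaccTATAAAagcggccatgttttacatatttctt
HIST1H2BK, chr6:27146856-27147005, minus strand: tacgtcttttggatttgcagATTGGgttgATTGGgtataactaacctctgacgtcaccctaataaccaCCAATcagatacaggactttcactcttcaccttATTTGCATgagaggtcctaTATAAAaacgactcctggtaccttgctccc
HIST4H4, chr12:14771132-14771281, minus strand: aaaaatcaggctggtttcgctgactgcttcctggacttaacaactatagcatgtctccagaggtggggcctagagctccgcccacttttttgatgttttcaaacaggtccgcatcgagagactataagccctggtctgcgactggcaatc
H2AFJ, chr12:14774255-14774404, plus strand: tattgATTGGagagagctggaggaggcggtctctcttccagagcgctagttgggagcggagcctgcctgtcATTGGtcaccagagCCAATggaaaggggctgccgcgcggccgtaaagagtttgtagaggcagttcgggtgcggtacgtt
HIST1H2AC and HIST1H2BK held all 3 motifs. H2AFJ held CCAAT, and the stretch shown for HIST4H4 held none of them. The full searched window of HIST4H4 did hold TATAAA, outside the stretch shown.

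Histone mRNAs were detected in both lines despite the poly(A)-directed labelling. A probe counted as detected in a channel when the scanner software called it well above background. In the MKN74 control channel 70 of 81 clustered probes were detected (86.4%), against 54.6% of all gene probes. In the MKN45 control channel the count was 69 of 81 (85.2%), against 59.7% of all. After knockdown 70 clustered probes were detected in MKN74 and 72 in MKN45. Variant probes differed more between the lines. They were detected in the control channel for 13 of 21 probes in MKN74 (61.9%) and 18 of 21 in MKN45 (85.7%), with 14 and 19 after knockdown.

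Counting a probe as present in a line if either channel was detected, 83 of the 102 probes were present in both lines, 8 in MKN45 only, 1 in MKN74 only and 10 in neither. Over all gene probes 57.4% were present in both lines, 9.48% in MKN45 only, 3.16% in MKN74 only and 29.9% in neither, so the histone share in MKN45 only (7.84%) was near that of the array. Those in neither line included HIST1H1A, HIST1H4G, the testis histones HIST1H1T and HIST1H2BA, the oocyte linker histone H1FOO and H1FX-AS1. Other testis histones went the other way. HIST1H2AA was present in both lines, and the HIST3H3 probe read 24099 in the MKN74 control and 18248 in the MKN45 control. Whether these probes hold signal from other genes was not tested. HIST3H2A was the 1 probe in MKN74 only. The 8 in MKN45 only were HIST1H2APS1, HIST1H2BE and 1 probe each of H2AFB2, H2AFB3, H2AFJ, H2AFV, H2AFY2 and HIST2H2BF. These genes were named after their values were seen.

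**Figure D2:**
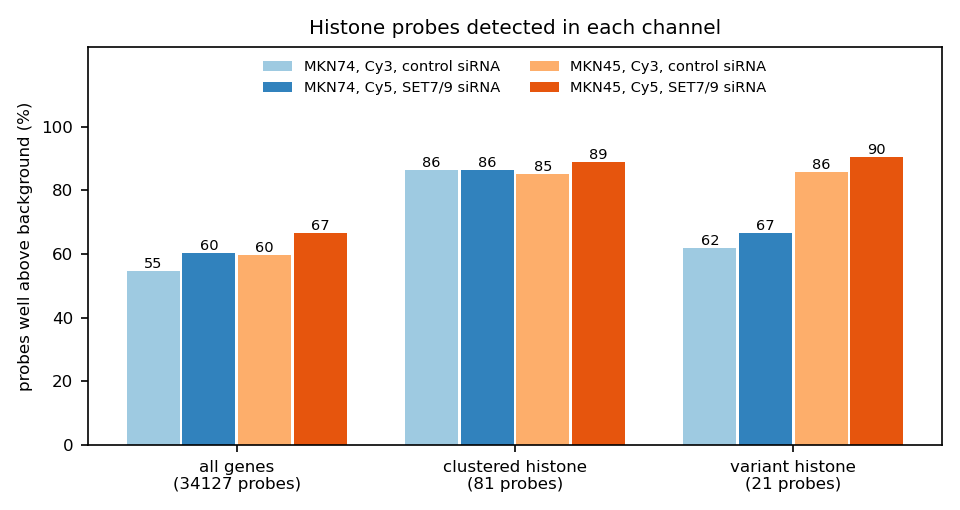
Percent of probes well above background (y axis) in the Cy3 channel (control siRNA) and Cy5 channel (SET7/9 siRNA) of the MKN74 and MKN45 arrays, for all gene probes, clustered histone probes and variant histone probes. Clustered probes stood at 85.2% to 88.9% in all 4 channels, and variant probes were at 61.9% in the MKN74 control and 85.7% in the MKN45 control.

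Knockdown of SET7/9 left most histone probes close to a log2 ratio of 0 in both lines. Few passed the 1.5-fold cutoff (0.58 on the log2 scale) among probes detected in at least 1 channel. In MKN74, 2 of 84 histone probes were at least 1.5-fold lower, where 1.76% of all probes were, and 1 of 84 was at least 1.5-fold higher, where 3.78% were. In MKN45, 1 of 91 was lower, against 1.97% of all probes, and 0 of 91 were higher, against 4.81%. No histone probe passed the cutoff in the same direction in both lines, where 0.373% of all probes detected on both arrays were lower and 0.75% higher. Most higher calls over the array came from probes detected in 1 channel. Among probes detected in both channels, 2 of 83 histone probes were lower and 1 higher in MKN74, against 1.45% and 0.64% of all, and 1 of 87 was lower and 0 higher in MKN45, against 1.62% and 0.814%. These shares do not set the histone genes apart from the rest of the array.

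With 1 probe per gene, MKN74 had a median log2 ratio of 0.13 across 61 clustered genes and 0.12 across 11 variant genes. The MKN45 medians were 0.08 across 62 clustered and 0.04 across 13 variant genes. Over all genes the medians were 0.00 in MKN74 and 0.01 in MKN45. The clustered minus variant difference was 0.00 in MKN74 and 0.04 in MKN45. In MKN74 it was 0.12 with no filter on dim probes and 0.090 with the mean over the probes of a gene. There it was 0.064 when both channels had to be detected, which left 10 variant genes with a median of 0.06.

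Positive ratios outnumbered negative ones among the histone genes. Of the clustered genes kept, 51 of 61 were above 0 in MKN74 (83.6%) and 43 of 62 in MKN45 (69.4%), where 51.2% and 53.2% of all genes were. Variant genes were above 0 in 7 of 11 cases in MKN74 (63.6%) and in 10 of 13 in MKN45 (76.9%). Of the 80 histone probes detected in both channels of both arrays, 48 were above 0 on both and 7 below 0 on both. Among all 17362 such probes, 5580 were above and 5857 below 0 on both. In MKN74, 64 of the 80 probes lay within their own scanner error of 0 (80%), against 77.7% of all such probes, and in MKN45, 72 of 80 did (90%), against 78.0%. Clustered probes were richer in G and C than the array as a whole, with a median GC content of 53.3% against 43.3%, and variant probes had 45%. The part of base composition and of dye in these small ratios was not tested.

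By family, the H4 genes had the highest median in MKN74. Their 13 genes lay between 0.08 and 1.04 with a median of 0.19, and all 13 were above 0. In MKN45 the same family had a median of 0.05, with 9 of 13 above 0. The 16 H2B genes of MKN74 had a median of 0.13 and the 17 of MKN45 one of 0.14, with 15 above 0 in each line. H2A medians were 0.09 in both lines over 15 genes. H3 genes were at 0.09 in MKN74 and 0.00 in MKN45 over 13 genes, and 8 of the 13 were below 0 in MKN45. The 4 detected H1 genes had medians of 0.07 and 0.06.

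**Figure D3:**
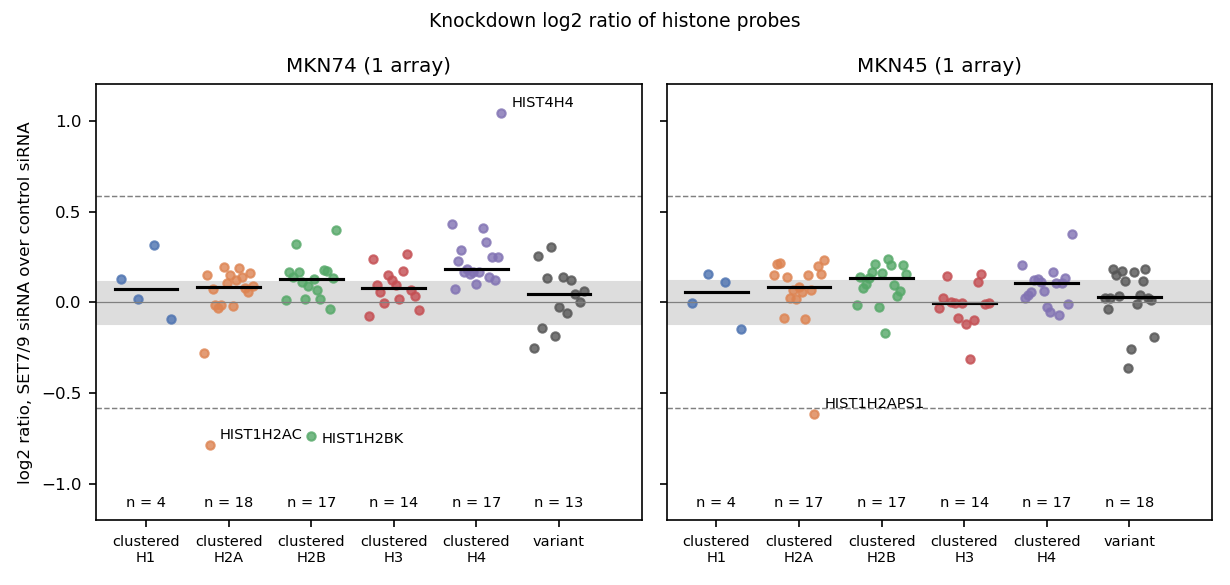
Knockdown log2 ratio (SET7/9 siRNA over control siRNA, y axis) of each histone probe detected in both channels, by family, on the MKN74 array (left) and the MKN45 array (right). Black bars are medians over the probes shown, the grey band holds the middle 50% of all genes, and dashed lines mark 1.5-fold. In MKN74, 3 probes (HIST1H2AC, HIST1H2BK, HIST4H4) lie past a dashed line, and in MKN45 1 probe (HIST1H2APS1) does.

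HIST1H2AC and HIST1H2BK passed the cutoff in MKN74, lower after knockdown, and only at their downstream probes. The downstream HIST1H2BK probe read 980 in the MKN74 control and 587 after knockdown, a log2 ratio of -0.74 ± 0.22. The gene-body probe of HIST1H2BK read 1769 and 1937, a log2 ratio of 0.13 ± 0.20. In MKN45 the downstream probe read 2424 and 2153 (log2 ratio -0.17 ± 0.20), and the gene-body probe read 1663 and 1959 (0.24 ± 0.21). Downstream was thus below gene body in both lines, by 0.87 ± 0.30 on the log2 scale in MKN74 and by 0.41 ± 0.29 in MKN45. The gene-body probe shares an identical run of 32 bases with the HIST1H2BD probe, so its values may hold signal from other H2B genes.

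The downstream HIST1H2AC probe was dimmer. It read 48.2 in the MKN74 control and 27.9 after knockdown, a log2 ratio of -0.79 ± 0.28. With normexp background correction and loess, which damp dim spots, this ratio was -0.37 and no longer past the cutoff, and that of the downstream HIST1H2BK probe was -0.76. The probe at the start codon read 1113 and 1103 (log2 ratio -0.01 ± 0.20), and the one before it read 68.0 and 71.6 (0.07 ± 0.23). In MKN45 the downstream probe went the other way, from 210.2 to 243, a log2 ratio of 0.21 ± 0.21. The start-codon probe there was at -0.08 ± 0.20 and the one before it at 0.22 ± 0.23. The downstream values of the 2 lines differed by 0.998 ± 0.35 on the log2 scale, or by 0.51 with normexp and loess, and this difference rests on 1 array each.

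Over the 14 pairs of probes of the same gene that were detected in both channels in MKN74, from 10 genes, the median absolute difference in log2 ratio was 0.11. Only 3 pairs differed by more than 1.5-fold, and all 3 contained a downstream HIST1H2AC or HIST1H2BK probe. In MKN45, 16 pairs from 12 genes had a median of 0.17 and none passed 1.5-fold. The largest difference there, 0.48 ± 0.30, was in H2AFV, whose downstream probe lay below its upstream probe, and it was at least as large as the HIST1H2BK difference in that line. The 3 probes of H3F3A, which lie up to 6.24 kb apart, differed by at most 0.18 in MKN74 and 0.16 in MKN45.

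**Figure D4:**
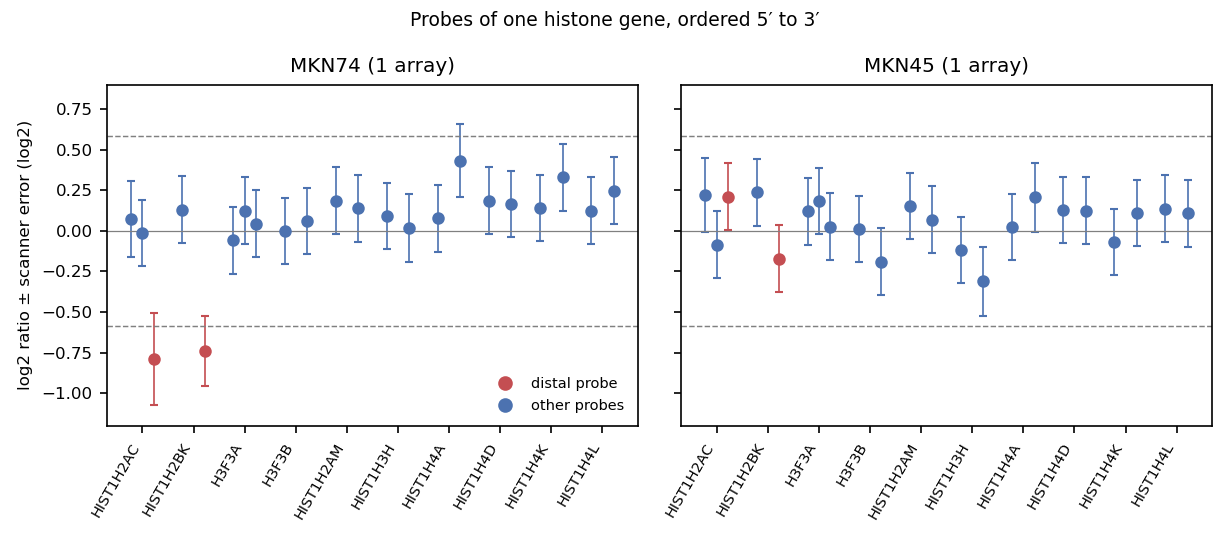
Knockdown log2 ratio (y axis, error bars are the scanner error on the log2 scale) of genes with at least 2 probes detected in both channels of both arrays, on the MKN74 array (left) and the MKN45 array (right). Probes of a gene run 5′ to 3′ and the downstream probes of HIST1H2AC and HIST1H2BK are red (labelled distal). In MKN74 the red points lie at -0.79 and -0.74 below the blue points of the same genes, and in MKN45 at 0.21 and -0.17.

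HIST4H4 had the highest ratio of the clustered genes detected in both channels, on either array. It encodes the same H4 protein as the chromosome 6 genes but lies on chromosome 12, apart from the large clusters. Its probe read 25.8 in the MKN74 control and 53.1 after knockdown, a log2 ratio of 1.04 ± 0.27. In MKN45 it read 89.9 and 116.6, a log2 ratio of 0.38 ± 0.21. With normexp and loess the ratios were 0.39 and 0.21, inside the cutoff.

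HIST1H2APS1, an H2A pseudogene, was the clustered probe past the cutoff in MKN45. It read 30.6 in the control and 19.9 after knockdown, a log2 ratio of -0.62 ± 0.31, and neither channel was detected in MKN74. Normexp and loess gave -0.15.

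The remaining clustered genes stayed inside the cutoff where both channels were detected. Among H4 genes, HIST1H4A had a probe at 66.2 in the MKN74 control and 89.2 after knockdown, a log2 ratio of 0.43 ± 0.22, and its brighter probe was at 0.08 ± 0.20. HIST1H4J read 3655 and 4856 in MKN74, a log2 ratio of 0.41 ± 0.21, and 0.17 ± 0.20 in MKN45.

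Among H2A genes, HIST1H2AA, a testis gene, read 92.7 and 76.2 in MKN74, a log2 ratio of -0.28 ± 0.22. In MKN45 its control channel was not well above background. HIST2H2AC had one of the highest H2A ratios in MKN45, with 2847 and 3341 and a log2 ratio of 0.23 ± 0.21, and it was at 0.16 ± 0.20 in MKN74. The stem-loop probe of HIST1H3H was the lowest H3 probe in MKN45, with 159.6 and 128.6 and a log2 ratio of -0.31 ± 0.21. Its other probe, 214 bases upstream, was at -0.12 ± 0.20 there.

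Variant histones stayed inside the 1.5-fold cutoff in both lines wherever a channel was detected, except that with median centring the bright H2AFV probe was at 0.63 in MKN74. H2AFX encodes H2A.X, which is phosphorylated at DNA breaks. It was lower in both lines, reading 7507 and 6594 in MKN74 (log2 ratio -0.19 ± 0.20) and 11865 and 9912 in MKN45 (-0.26 ± 0.21). The MKN74 value was within its error and the MKN45 value was just beyond it.

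The H2A.Z genes H2AFZ and H2AFV encode variants found at promoters. H2AFZ read 30881 and 34002 in MKN74 (log2 ratio 0.14 ± 0.20) and 9111 and 9370 in MKN45 (0.04 ± 0.20). The bright H2AFV probe was at 0.31 ± 0.21 and 0.12 ± 0.20. A dim H2AFV probe, 6.4 kb further downstream, was detected in MKN45 alone, at -0.36 ± 0.23.

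H2AFY encodes macroH2A1, a large variant of silent chromatin, and was at -0.03 ± 0.20 and 0.17 ± 0.20. H2AFY2, for macroH2A2, was detected in MKN45 alone, where it read 193 and 192 (log2 ratio -0.01 ± 0.21). H2AFJ encodes H2A.J and was at 0.13 ± 0.20 and 0.04 ± 0.20 at its bright probe. Its other probe was detected in MKN45 alone, at 0.17 ± 0.35. H2AFB2 and H2AFB3, short H2A variants of the testis, were near the background. One H2AFB2 probe was at 0.18 ± 0.34 in MKN45, and in MKN74 its control channel was not well above background. H2AFB3 was at 0.15 ± 0.29 in MKN45.

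H3F3A and H3F3B encode the same H3.3 protein. The 3 H3F3A probes lay between -0.06 and 0.12 in MKN74 and between 0.03 and 0.18 in MKN45. The bright H3F3B probe read 24859 and 24870 in MKN74 (log2 ratio 0.00 ± 0.20) and 14748 and 14853 in MKN45 (0.01 ± 0.20). Its dim probe was at 0.06 ± 0.20 and -0.19 ± 0.21.

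Of the variant linker histones, H1F0, which accumulates in cells that stop dividing, read 1493 and 1255 in MKN74 (log2 ratio -0.25 ± 0.21) and 1113 and 1133 in MKN45 (0.03 ± 0.20). H1FX was at -0.14 ± 0.20 and 0.02 ± 0.20. H1FNT, a linker histone of sperm formation, was close to the background at 0.26 ± 0.32 and -0.04 ± 0.27.

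Both arrays were then taken as replicates of the knockdown, which leaves 1 residual degree of freedom. By limma's moderated test with Benjamini-Hochberg adjustment over all 19595 probes kept on both arrays, 0 of 83 histone probes passed an adjusted p of 0.05, and 0% of all probes did. The lowest adjusted p among histone probes was 0.373. At an unadjusted p of 0.05, 5 histone probes and 2569 probes in all passed, that is 6.02% and 13.1%. The 5 were in HIST4H4, HIST1H4A, HIST3H2BB, H2AFB2 and H2AFX and were named after their values were seen. With normexp background correction and loess, limma called 13 of the 83 histone probes, 10 higher and 3 lower, among 1558 of all probes (7.95%).

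The control channels compared the lines without knockdown. The same probe was compared across the arrays after scaling between them, over probes detected in Cy3 in both lines. Of 80 histone probes, 12 were at least 1.5-fold lower in MKN45 than in MKN74, where 33.3% of all probes were, and 16 were at least 1.5-fold higher, where 23.3% were. Both histone shares were below those of the array, and that difference was not tested.

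Clustered genes had a median Cy3 difference, MKN45 minus MKN74, of 0.19 on the log2 scale over 58 genes, and all genes had -0.13. The median over 10 variant genes was -0.10, but it was 0.12 when each array was scaled to its 75th percentile, which also moved the median of all genes to 0.02. H2A genes were mostly brighter in MKN45, with a median of 0.34 and 11 of 13 above 0. H4 genes had a median of -0.02 and ran from -1.69 to 1.45, and H3 genes ran from -2.45 to 0.95. In bulk RNA, fewer cells in S phase and less histone mRNA per cell cannot be told apart.

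**Figure D5:**
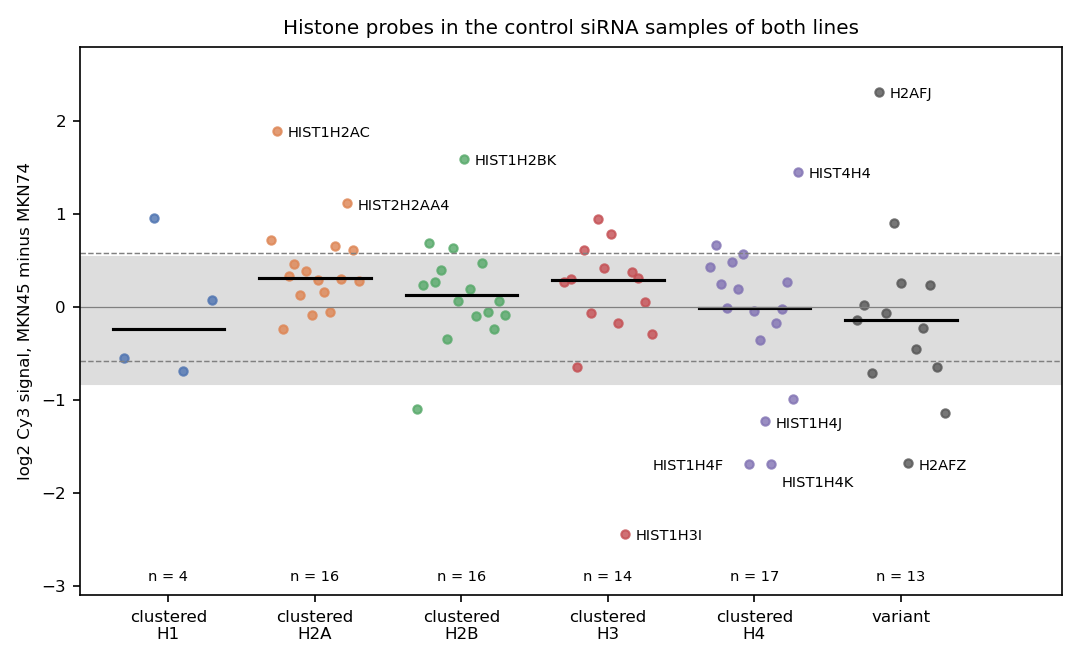
Difference in log2 Cy3 signal (MKN45 minus MKN74 control siRNA samples, y axis) of each histone probe detected in Cy3 in both lines, by family. Black bars are medians over the probes shown, the grey band holds the middle 50% of all genes, and dashed lines mark 1.5-fold. HIST1H3I at -2.45 and H2AFJ at 2.32 are the extremes, and the named points are the 5 lowest and 5 highest.

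The values that follow cover probes detected in Cy3 in both lines. Of these, the histone genes brightest in MKN74 relative to MKN45 were the H3 gene HIST1H3I, 3 H4 genes and H2AFZ. Under the same filter, no clustered H2A probe and 1 clustered H2B probe were at least 1.5-fold lower in MKN45. HIST1H2AA, HIST3H2A and HIST3H2BB were detected in the control channel of MKN74 only, so they fall outside it and are given below as bounds. HIST1H3I had a control signal of 499.7 in MKN74 and 94.0 in MKN45, 5.45-fold lower in MKN45 after scaling, or 3.52-fold lower with normexp. HIST1H4F read 1508 and 401, 3.22-fold lower. The stem-loop probe of HIST1H4K read 3115 and 791 (3.22-fold lower), but its other probe, 135 bases upstream, read 8546 and 6257 (1.12-fold lower). HIST1H4J, whose probe shares the longest run with that HIST1H4K probe, was 2.35-fold lower. H2AFZ, the main H2A.Z gene, read 30881 and 9111 and was 3.21-fold lower in MKN45.

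H2AFJ showed the largest difference the other way among probes detected in Cy3 in both lines. It read 3874 in MKN74 and 16484 in MKN45, 4.98-fold higher in MKN45. Its neighbour HIST4H4, whose probe lies 3.81 kb away, was 2.74-fold higher, a value that ranged from 1.54-fold with normexp to 3.95-fold with 75th percentile scaling. The downstream probes of HIST1H2AC and HIST1H2BK were 3.72-fold and 3.02-fold higher in MKN45, but the start-codon probe of HIST1H2AC was 1.26-fold higher and the gene-body probe of HIST1H2BK 1.14-fold higher. The HIST1H2BK gene-body probe is the one that shares a run of 32 bases with the HIST1H2BD probe. The downstream HIST1H2AC value was 2.37-fold with normexp and 7.43-fold in the Cy5 channels. Both downstream probes were lower after knockdown in MKN74, and the MKN74 control signal enters both comparisons. HIST2H2AA4 was 2.17-fold higher. Of the other variants, the H3F3A and H3F3B probes differed by -1.14 to 0.24 on the log2 scale, H2AFX by 0.91 and H2AFY by 0.26. H1FX differed by -0.71, H1F0 by -0.14, the bright H2AFV probe by -0.06 and H1FNT by 0.02, or by 0.78 with 75th percentile scaling.

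Some genes were detected in the control channel of 1 line only, so that only a bound on the scaled signals can be given. H2AFY2, for macroH2A2, was at least 8.60-fold higher in MKN45. HIST1H2BE was at least 6.35-fold higher there, and the dim downstream H2AFV probe at least 3.14-fold. HIST1H2AA was at least 8.32-fold higher in MKN74, HIST3H2BB at least 8.06-fold and HIST3H2A at least 3.55-fold. HIST3H2A and HIST3H2BB lie side by side on chromosome 1, and HIST1H2BE, HIST3H2A and HIST3H2BB were named after their values were seen. The bounds set the dim side to the lowest scaled signal that was well above background on that array, or to the probe's own scaled signal where that was higher. They apply to this scaling alone and would change with another. Before scaling, the MKN74 and MKN45 control signals were 92.7 and 11.9 for HIST1H2AA and 91.6 and 13.2 for HIST3H2BB, which are closer together than those bounds.

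Genes that make, process and deposit histones had medians close to a log2 ratio of 0 after knockdown. Of 19 genes for transcription and 3′ end processing on the array, 18 were kept in each line, with a median log2 ratio of -0.05 in both. SLBP, the stem-loop binding protein, read 5110 in the MKN74 control (log2 ratio 0.05 ± 0.20) and 1808 in the MKN45 control (-0.05 ± 0.20). NPAT, the coactivator of clustered histone genes, was at 0.10 ± 0.22 and 0.04 ± 0.27. LSM11, a subunit of the U7 snRNP that cleaves histone pre-mRNA, was the 1 gene past 1.5-fold, higher in MKN74, but its control channel there was not well above background. SLBP and NPAT were dimmer in the MKN45 control than in the MKN74 control, with differences of -1.18 and -1.54 on the log2 scale.

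None of 23 histone chaperone and deposition genes passed 1.5-fold in either line at its brightest probe, with medians of -0.05 and -0.04. A dim ATRX probe was at -0.84 ± 0.40 in MKN74, and the other detected ATRX probes lay between -0.21 and 0.11. None of 25 S phase genes passed 1.5-fold either, with medians of 0.03 in MKN74 and 0.02 in MKN45. Among them PCNA, MCM2 and CCNA2 lay within 0.11 of 0 in both lines. In the control channels the S phase genes had a median MKN45 minus MKN74 difference of -0.19, with 6 lower and 5 higher by at least 1.5-fold.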

How the data were processed

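The authors deposited Agilent Feature Extraction 10.7.3.1 output for 2 arrays on 1 slide (version per the labels). The intensity of each spot and channel was background-subtracted and dye-normalized by the authors' scanner software and deposited on a linear scale. The deposited log10 ratio of the dyes was made by the authors' scanner software from those intensities. The deposited p-value of that ratio comes from the software's error model. A second deposited file gives log2 ratios. Both arrays came from the same scan. Low signals were replaced by surrogates in the deposited files, which bounds ratios of dim probes.

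From these, log10 ratios were converted to log2. Spots flagged as outliers and control spots were dropped, and the spots of each probe were averaged (each histone probe had 1). A probe needed at least 1 channel well above background on 50% of its spots. Where a gene had several kept probes, its brightest one was used in medians. Control levels were scaled with Aquantile in limma 3.58.1 (R 4.3.3), and both lines were fitted with limma and Benjamini-Hochberg adjustment at 0.05. The p-value column was not used. All members matched current RefSeq symbols, 99 probes by accession and 3 by synonym; printed names are those of the array. Probes are on GRCh37 and promoters on GRCh38.p14, and the builds were not mixed.

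Members and gene lists were chosen with earlier results of these data known. Genes named are the variant histones, clustered genes past 1.5-fold in both channels, the 3 highest and 3 lowest clustered ratios per array, the 5 largest control differences each way, SLBP, NPAT, SETD7 and supply genes past 1.5-fold. Alternatives changed background correction, centring, source, filters, cutoff and scaling. Steps were tested on simulated data. Analyses used Python 3.11.15. Which of the study's SET7/9 siRNAs was used for the arrays is not given in the sources used here.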

Additional observations from a re-analysis of the deposited data

Results flagged for a closer look

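The downstream HIST1H2AC probe moved in opposite directions in the 2 lines, with a log2 ratio of -0.79 in MKN74 and 0.21 in MKN45, a difference of 0.998 on the log2 scale. With normexp and loess the values were -0.37 and 0.14, a difference of 0.51, and the MKN74 value was no longer past 1.5-fold. Each line had 1 array, and the difference was not tested.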

How the results depend on the processing

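No paired analysis was possible because each line had 1 array, and leaving out either array left no residual degree of freedom, so that fit was not run. Counts of histone probes past 1.5-fold were small and moved with the settings. In MKN74 the lower count of 2 was 1 with normexp and loess, 5 with no filter and 0 at a 2-fold cutoff, and the higher count of 1 was 0 with normexp and loess, 3 with median centring and 3 with no filter. In MKN45 the lower count of 1 was 0 with normexp and loess, 2 with no filter and 0 at 2-fold, and the higher count of 0 was 1 with median centring and 1 with no filter. In both lines together, 1 probe was lower with no filter and 1 higher with median centring, in place of 0. The limma count of 0 was 13 with normexp and loess. In MKN74 the variant median of 0.12 was 0.00 with no filter and 0.036 with the mean over the probes of a gene, and the clustered minus variant difference of 0.00 was then 0.12 and 0.090. The variant control difference of -0.10 was 0.12 with 75th percentile scaling and 0.024 with probes detected in either line. The cause was not tested. Of 312 values of 33 named probes under the alternatives, 291 stayed within the scanner error of the reported value and 0 reversed a called direction. The dim HIST4H4, HIST1H2APS1 and downstream HIST1H2AC probes lost their calls with normexp, which adds an offset of 50 to each signal.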
